A study of Mus musculus with 5 samples.

Results

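The genes described here are 8 transcription factor genes of the granule cell lineage of the mouse cerebellum: Mycn, Mycl, Nhlh1, Neurod1, Neurod2, Pax6, Meis1 and Etv1. They were chosen by name, and each was found as 1 probe with a single gene symbol, so 8 of the 773 genes named in the table, or 8 of its 897 probes, are members. Total RNA of whole cerebellum was hybridised to arrays at 5 ages, with 1 column of values for each. E18 is embryonic day 18, and P7, P14, P21 and P56 count days from birth. The labels describe each column as a mean over 2 array experiments and name genes that take part in cerebellar development as the study's interest. The sources used here do not give strain, sex, genotype or the number of animals. A single column per age allows no test, so no p-value is printed, and the number of arrays limits the precision.

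Granule cells are small glutamatergic neurons and the most numerous neurons of the cerebellum. Their progenitors leave the rhombic lip before birth, form the external granular layer and divide there after birth under Sonic hedgehog from Purkinje cells. They then leave the cell cycle, migrate inward past the Purkinje cells and mature in the internal granular layer, and in the mouse the external layer is gone within a few weeks of birth. Mycn is a target of Hedgehog signalling that keeps progenitors dividing, and Mycl is another gene of the Myc family, whose proteins bind DNA as partners of Max. Pax6, a paired and homeodomain factor, and Meis1, a homeodomain factor of the TALE class, are found in the lineage from its progenitors on. Nhlh1 is a basic helix-loop-helix (bHLH) factor of neurons that have just stopped dividing. Neurod1 and Neurod2 are bHLH factors of neuronal differentiation and survival, and Etv1 is an ETS factor of maturing granule cells.

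The sequences before the members' start sites were searched for E-boxes, and the share over all start sites is given beside each count. bHLH proteins bind E-boxes, written CANNTG, a motif that reads the same on both strands. In the RefSeq table of build GRCm38.p6 the 8 members have 10 start sites, and 8 of the 10 windows of 250 bases before a start hold an E-box, against 66.2% of all 32851 windows. The forms CACGTG and CAGCTG are in 0 of the 10, against 6.02% and 13.0% of all windows. The form CATATG is in 2 of the 10, those of Neurod1 and Neurod2, against 3.46% of all windows. Windows with at least 3 E-boxes make up 12.2% of all, and among the members they are the window of Neurod2 and 1 of the 2 windows of Etv1. Below, windows of the Myc pair, of the Neurod pair and of Etv1 are given 5′ to 3′ with E-boxes in capitals, because these are the genes whose values differed most or stayed high longest. A match to the motif is a description of the letters and does not show binding.
Mycn (chr12:12941837-12942086, minus strand): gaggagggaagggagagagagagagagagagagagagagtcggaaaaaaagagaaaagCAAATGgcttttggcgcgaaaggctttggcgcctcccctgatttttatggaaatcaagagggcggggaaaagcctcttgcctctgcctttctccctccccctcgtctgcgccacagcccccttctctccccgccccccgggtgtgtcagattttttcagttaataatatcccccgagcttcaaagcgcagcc
Mycl (chr4:122995681-122995930, plus strand): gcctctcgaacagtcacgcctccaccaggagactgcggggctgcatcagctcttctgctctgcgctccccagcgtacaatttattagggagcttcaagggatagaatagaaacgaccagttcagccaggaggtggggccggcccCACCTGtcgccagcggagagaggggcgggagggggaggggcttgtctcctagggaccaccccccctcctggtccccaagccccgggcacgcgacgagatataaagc
Neurod1 (chr2:79456637-79456886, minus strand): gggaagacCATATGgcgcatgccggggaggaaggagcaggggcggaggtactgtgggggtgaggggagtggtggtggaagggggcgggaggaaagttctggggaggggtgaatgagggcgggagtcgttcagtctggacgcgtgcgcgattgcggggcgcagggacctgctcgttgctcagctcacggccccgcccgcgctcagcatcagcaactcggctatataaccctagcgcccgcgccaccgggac
Neurod2 (chr11:98329646-98329895, minus strand): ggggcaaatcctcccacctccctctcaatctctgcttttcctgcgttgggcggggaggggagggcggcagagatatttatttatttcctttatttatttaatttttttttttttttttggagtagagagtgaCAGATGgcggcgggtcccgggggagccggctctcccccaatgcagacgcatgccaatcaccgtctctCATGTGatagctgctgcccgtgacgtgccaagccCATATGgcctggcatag
Etv1, first start (chr12:38779832-38780081, plus strand): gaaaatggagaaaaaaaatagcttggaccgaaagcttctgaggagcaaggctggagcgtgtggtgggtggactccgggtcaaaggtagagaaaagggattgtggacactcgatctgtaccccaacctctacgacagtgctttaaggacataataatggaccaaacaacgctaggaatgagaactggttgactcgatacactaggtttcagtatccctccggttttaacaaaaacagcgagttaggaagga
Etv1, second start (chr12:38783461-38783710, plus strand): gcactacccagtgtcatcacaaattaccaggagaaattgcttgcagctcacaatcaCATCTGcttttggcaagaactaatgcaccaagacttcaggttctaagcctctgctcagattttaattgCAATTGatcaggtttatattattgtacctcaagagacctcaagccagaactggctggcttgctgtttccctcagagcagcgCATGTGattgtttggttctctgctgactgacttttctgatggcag
The single E-box begins 192 bases before the start in Mycn (CAAATG) and 106 bases before it in Mycl (CACCTG). The form CATATG begins 242 bases before the start in Neurod1 and 17 bases before it in Neurod2, so the shared form lies at different distances. The first start of Etv1 has 0 E-boxes in the window and the second has 3. Which start the array probe reports on was not tested.

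The deposited values run from 0.01 to 100 and were taken to be percentages of a probe's highest age, computed in each experiment before the 2 were averaged. The authors' labels do not state this scale, and it was inferred from the numbers. If it holds, a probe below 100 at every age peaked at a different age in each experiment, and each of those ages must average at least 50. Of the 477 probes that never reach 100, 0 have fewer than 2 ages at 50 or more, and the lowest second highest value among them is 57.3. In contrast, 23 of the 420 probes that do reach 100 have a second highest value under 50. A value is thus a share of the gene's own highest signal and says nothing of one gene's level against another's. A mean v also limits both experiments behind it, to between 2v - 100 (or 0) and 2v (or 100). Where 2 ages are over 50 points apart, the direction must therefore be shared by both experiments.

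The members had their highest and lowest values at different ages. Mycn and Mycl stood near their highest at E18 and P7 and were below 5% by P21. Meis1, Pax6 and Nhlh1 were near or under 50% of their highest by P14 and lower at P21. Neurod1 and Neurod2 were highest at P14, and Neurod1 held its level through P21. Etv1 was low at E18 and P7 and was the only member with its highest value at P56. By the rule that a gene is lost from the age at which it stays at or under 50% of its highest value, Mycn, Mycl and Meis1 were lost at P14, Nhlh1 and Pax6 at P21 and Neurod1 at P56, while Neurod2 and Etv1 were not lost. Of these ages of loss, those of Mycn and Nhlh1 held under all 4 alternatives, which were shares of 33.3% and 25% and 2 scalings between columns. Mycl was lost at P21 under all 4, Meis1 at P21 or not at all, and Pax6 and Neurod1 were not lost under 3 of the 4. By the same share for gains, Etv1 was gained at P14 and Neurod2 at P7, and the other 6 were already above it at E18; the gain of Etv1 at P14 held under all 4 alternatives, while that of Neurod2 and Neurod1 moved between E18 and P7. RNA of whole tissue does not tell fewer cells of a type from less RNA per cell.

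**Figure D1:**
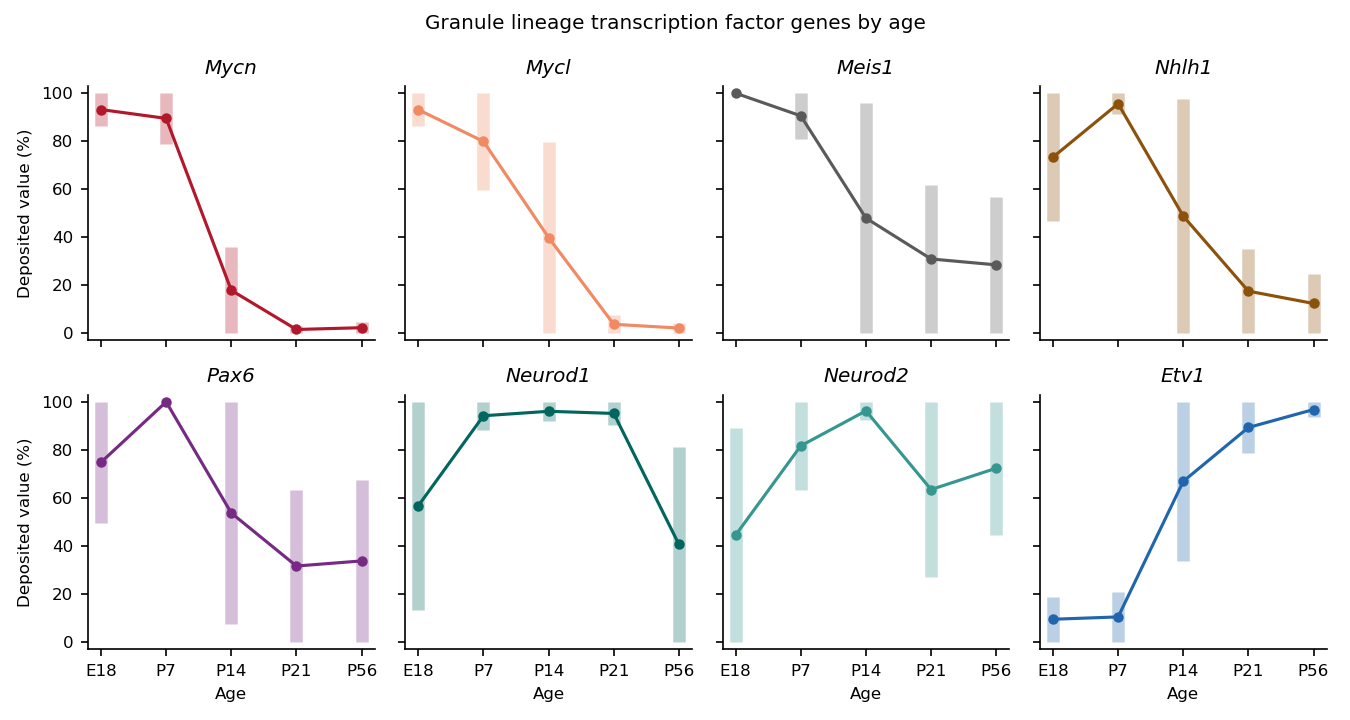
Deposited value in percent (y axis) at the 5 ages (x axis) for each of the 8 genes. Points are the means of the 2 experiments, and the pale bars span the values that either experiment can have had. Mycn and Mycl lie below 5% at P21 and P56 while Etv1 is at 96.8% at P56.

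Mycn had 93.2%, 89.5%, 17.9%, 1.55% and 2.29% at E18, P7, P14, P21 and P56. It was thus high at the first 2 ages, intermediate at P14 and near the bottom of its scale at the last 2. Mycn was 40.7-fold lower at P56 than at E18, a log2 difference of -5.35, or -4.28 relative to the median probe. On the deposited values the fall was at least 18.9-fold in both experiments. It was -2.19 (log2) with values under 20.4%, the 10th percentile of the table, set to that value, and -3.97 with quantile normalization. As large a fall was seen in 10 of the 897 probes (1.11%), Mycn included. It fell in 2 steps, 5.01-fold at P14 against P7 and 11.5-fold at P21 against P14. The first step was at least 2.21-fold in both experiments, and 4 probes of the table, Mycn included, fell as much as Mycn in the second. The second step lies at low values, and the same floor brings it to 0.00 (log2).

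Mycl had 93.1%, 79.9%, 39.8%, 3.71% and 2.13% at E18, P7, P14, P21 and P56. It reached the same low end as Mycn but kept a larger share at P14. Its fall at P56 against E18 was 43.7-fold (log2 difference -5.45), at least 20.3-fold in both experiments on the deposited values, and 9 probes including Mycl fell as much. It was -2.19 with the floor at the 10th percentile and -4.18 with quantile normalization. Mycl fell 2.01-fold at P14 against P7, just past the threshold of 2-fold, and this call was lost with columns divided by their medians (-0.43) and with quantile normalization (-0.60). It fell 10.7-fold at P21 against P14, where 5 probes including Mycl fell as much, and -0.97 (log2) remained with the floor at the 10th percentile. At P14 either experiment could have had from 0% to 35.7% of its highest for Mycn and from 0% to 79.7% for Mycl, so the larger share of Mycl there is not shown for both experiments.

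Markers of dividing cells give a scale for the Myc pair. All 11 measured of 15 listed markers fell by 2-fold or more at P14 against P7, as 24.7% of all probes did. Their median was -3.24 (log2), against -0.58 over all probes. At P14 they stood between 4.43% and 28.1% of their own highest value, with a median of 10.4%. Mycn, at 19.2% of its own highest, had 7 of the 11 below it, and Mycl, at 42.8%, had all 11 below it. At P21 the markers ranged from 0.02% to 19.3% with a median of 6.18%, and 2 of the 11 were below Mycn (1.66%) and 5 below Mycl (3.98%). These ranks are of the means and are not shown for each experiment. The summed values of the 11 markers were 86.5 points at P56 and 900 points at E18, and their part in the fall of Mycn and Mycl was not tested. Max, the shared partner gene and the only measured gene of 9 others in the Myc network, went the other way without passing 2-fold: it had 57.7%, 60.5%, 91.2%, 86.2% and 91.8% at the 5 ages.

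**Figure D2:**
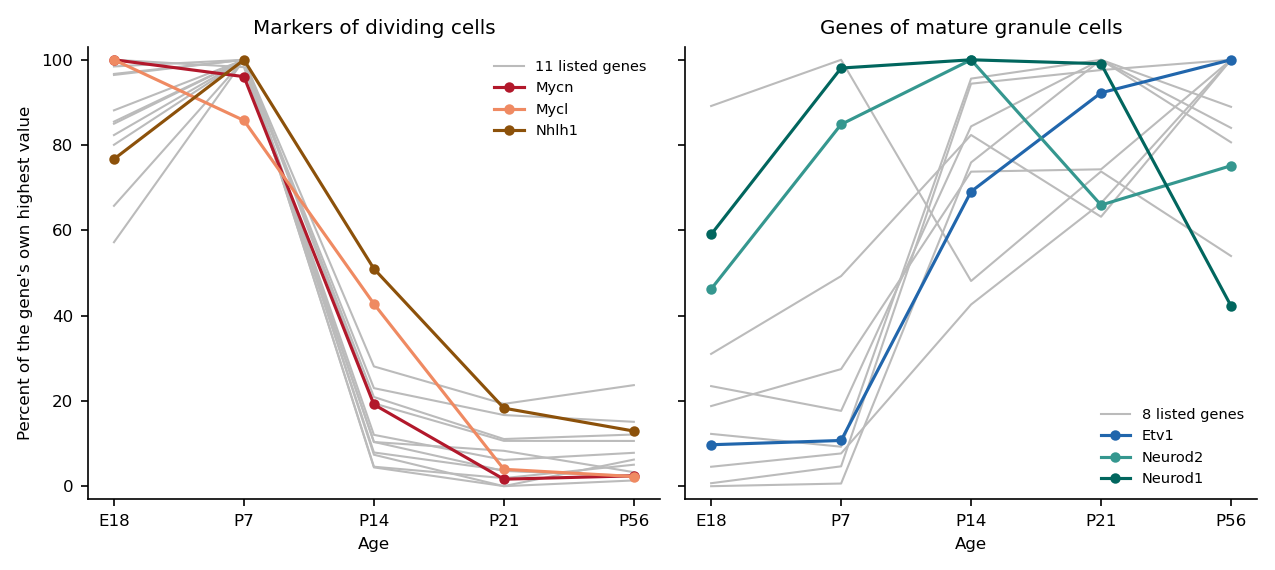
Percent of each gene's own highest value (y axis) by age (x axis) for the 11 markers of dividing cells (left, grey) with Mycn, Mycl and Nhlh1, and for the 8 measured genes of mature granule cells (right, grey) with Etv1, Neurod2 and Neurod1. At P14 the means of Mycl and Nhlh1 lie above those of all 11 markers of dividing cells, and Etv1 has 2 of the 8 granule cell genes below it.

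Nhlh1 had 73.4%, 95.6%, 48.8%, 17.5% and 12.4% at E18, P7, P14, P21 and P56. Its mean was highest at P7 and lower at each later age. Nhlh1 was 5.93-fold lower at P56 than at E18 (-2.57, or -1.50 relative to the median probe), at least 1.89-fold in both experiments, and 7.72-fold lower at P56 than at P7, at least 3.68-fold in both. With the floor at the 10th percentile these were -1.85 and -2.23 (log2), and with quantile normalization -1.48 and -2.18. The difference at P14 against P7 was 1.96-fold, within the threshold, and Nhlh1 passed 2-fold at P21 against P14, where it fell 2.78-fold. The share of 51.0% left at P14 is above that of all 11 markers of dividing cells, and the 18.3% left at P21 is above that of 10 of them. Either experiment could have had from 0% to 97.5% at P14 and from 0% to 35.0% at P21, so these ranks are not shown for both experiments.

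Pax6 had 74.8%, 100%, 53.7%, 31.6% and 33.7% at E18, P7, P14, P21 and P56, so both experiments had their highest value at P7. It fell 2.96-fold at P56 against P7, at least 1.48-fold in both experiments, and 2.22-fold at P56 against E18. No single step passed 2-fold. Meis1 had 100%, 90.6%, 48.0%, 30.9% and 28.5% at the same ages, so both experiments had their highest value at E18. It fell 3.51-fold at P56 against E18, at least 1.76-fold in both experiments, and no step between neighbouring ages passed 2-fold. Both genes thus declined gradually to about the same share. Relative to the median probe, which differed by -1.07 (log2) at P56 against E18, Pax6 differed by -0.08 and Meis1 by -0.74. With columns divided by their medians the differences were -0.14 for Pax6 and -0.80 for Meis1, and at P56 against P7 they were -0.59 and -0.69, none of them past 2-fold. With quantile normalization Pax6 was at -0.14 at P56 against E18 and at -1.01 at P56 against P7, and Meis1 at -1.33 and -0.92, so each kept 1 of its 2 calls.

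Neurod1 had 56.7%, 94.2%, 96.1%, 95.2% and 40.6% at E18, P7, P14, P21 and P56. It was high and flat over the 3 middle ages and lower at both ends. Its fall came last of all the members: 2.34-fold at P56 against P21, at least 1.11-fold in both experiments, and 9 of the 897 probes, Neurod1 included, fell as much in that step. With quantile normalization this difference was -0.71 (log2) and not past 2-fold. Neurod1 also fell 2.32-fold at P56 against P7, a call that was lost with both scalings between columns (-0.23 and -0.49). The values at P56 and E18 differed by -0.48, within 2-fold, and this turned to 0.53 with columns divided by their medians and 0.42 with quantile normalization.

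Neurod2 had 44.5%, 81.7%, 96.3%, 63.5% and 72.4% at E18, P7, P14, P21 and P56. Its highest value, at P14, was 2.16 times its lowest, at E18, and it did not change by 2-fold in any of the 6 comparisons of ages made here. At P56 against E18 it differed by 0.70 (log2), which is 1.77 relative to the median probe, and passed 2-fold with columns divided by their medians (1.71) and with quantile normalization (1.05). The pair of Neurod genes differed in order at the late ages: Neurod1 was at 95.2% at P21 and 40.6% at P56, and Neurod2 at 63.5% and 72.4%. At P56 either experiment could have had from 0% to 81.3% for Neurod1 and from 44.7% to 100% for Neurod2, so these ranges overlap.

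Etv1 had 9.43%, 10.4%, 66.9%, 89.3% and 96.8% at E18, P7, P14, P21 and P56. On the deposited scale it was the only member to pass 2-fold upward in any of the 6 comparisons. Etv1 was 10.3-fold higher at P56 than at E18 (log2 difference 3.36, or 4.43 relative to the median probe), at least 4.97-fold in both experiments (2.25 on the log2 scale with the floor at the 10th percentile), and 28 of the 897 probes (3.12%), Etv1 included, rose as much. Most of this, 2.69 of the 3.36, lay in the step of P14 against P7, a rise of 6.43-fold that was at least 1.63-fold in both experiments, and 17 probes including Etv1 rose as much. Of 18 listed genes of mature granule cells 8 were measured. At P56 against E18, 7 of the 8 rose by 2-fold or more (22.6% of all probes did), with a median of 2.63 (log2). In the step of P14 against P7, 6 rose (14.4% of all probes did), and the median over the 8 was 2.36. In that step 1, the calmodulin gene Calm3, fell by 2-fold or more, as 24.7% of all probes did. Over all probes the medians were -1.07 at P56 against E18 and -0.58 at P14 against P7. At P7 the 8 genes stood between 0.65% and 100% of their own highest value, with Etv1 at 10.7%, and at P14 between 42.6% and 95.6% with a median of 79.2%, with Etv1 at 69.1%. Gabra6, which encodes a GABA-A receptor subunit of granule cells, had 94.2% at P14 and 4.67% at P7, and Kcnj9, a potassium channel gene, had 42.6% and 7.70%.

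Across the lineage, the limits on each experiment separate some of the members at P21. At that age either experiment had at most 3.10% of its highest for Mycn, 7.42% for Mycl, 35.0% for Nhlh1, 61.9% for Meis1 and 63.2% for Pax6. In the same column either experiment had at least 90.4% for Neurod1 and 78.7% for Etv1. Both genes thus kept a larger share of their highest value at P21 than those 5 in both experiments. At P56 this holds for Etv1, at 93.6% or more, but not for Neurod1, for which either experiment can lie anywhere from 0% to 81.3%. At P14 the shares were 19.2% for Mycn, 42.8% for Mycl, 48.0% for Meis1, 51.0% for Nhlh1, 53.7% for Pax6 and 69.1% for Etv1. Neurod1 and Neurod2 were both at 100% of their highest value at that age. Neighbours from Mycl to Etv1 are apart by less than 17.3 points, the median difference between the 2 experiments where it can be known. The order from Mycl to Etv1 is therefore not settled, although the 50% rule puts Mycl and Meis1 in the group lost at P14. Nor is Mycn separated from Mycl at that age, since either experiment can have had up to 35.7% for Mycn and as little as 0% for Mycl.

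For P7 against E18, 0 of the 8 members were higher and 0 were lower by 2-fold or more, against 5.8% and 2.79% of all probes. Both experiments must share a direction for 0 members, against 3.34% of all probes. In 3 members, Mycn, Mycl and Nhlh1, they must have gone opposite ways, as in 14.3% of all probes. These 3 have only E18 and P7 at 50% or more and never reach 100, so one experiment had its highest value at each age and both experiments can be written out. For Mycn the experiments had 79.0% and 100% at P7, against 100% and 86.4% at E18. For Mycl they had 59.8% and 100% at P7, against 100% and 86.3% at E18. For Nhlh1 they had 91.2% and 100% at P7, against 100% and 46.7% at E18. Whether Mycn, Mycl or Nhlh1 was higher at P7 or at E18 is therefore not settled by these data. Whether it was the same experiment that peaked at E18 for all 3 cannot be read from the means. Over the 136 probes of the table of this kind the experiments were apart by a median of 17.3 points, with 10th and 90th percentiles of 3.04 and 38.2 points. This is the only measure of error between experiments in the table, and it covers high values of probes whose experiments had different highest ages. For Pax6 neither experiment can have been higher at E18 than at P7, and for Meis1 neither can have been higher at P7 than at E18.

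**Figure D3:**
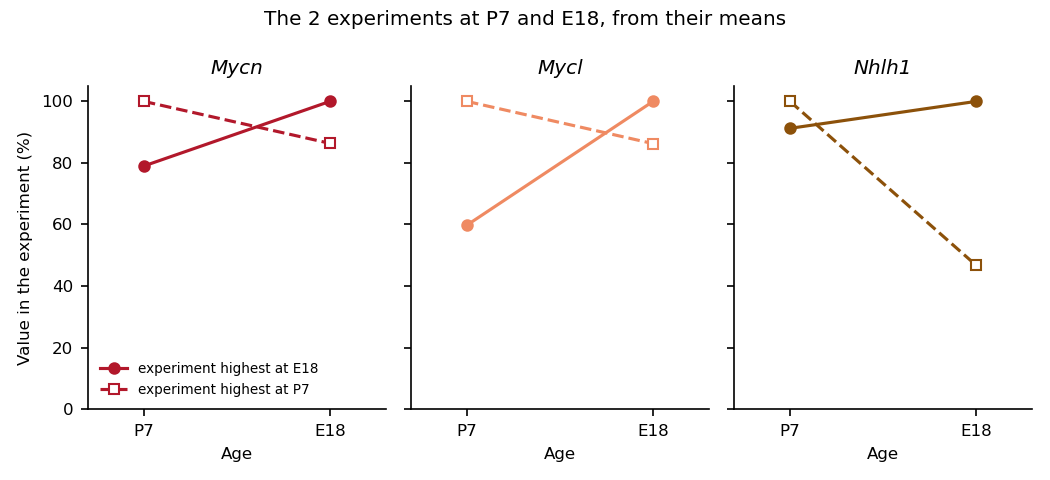
Value in each of the 2 experiments in percent (y axis) at P7 and E18 (x axis) for Mycn, Mycl and Nhlh1, worked out from the means. In each gene one experiment is at 100% at P7 and the other at 100% at E18, so the lines cross.

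For P14 against P7, 1 of the 8 members was higher (14.4% of all probes were) and 2 were lower (24.7%), and both experiments must share the direction for 2 members, Mycn and Etv1 (24.5%). For P21 against P14, 0 members were higher (3.23%) and 3 were lower, Mycn, Mycl and Nhlh1 (13.2%), and both experiments must share the direction for 0 (3.68%). For P56 against P21, 0 members were higher (2.68%) and 1, Neurod1, was lower (2.23%), a direction both experiments must share (1.0% of all probes). For P56 against P7, 1 member was higher (18.8%) and 6 were lower (52.3%), and both experiments must share the direction for 7, all but Neurod2 (55.2%). For P56 against E18, 1 member was higher (22.6%) and 5 were lower (52.5%), and both experiments must share the direction for 5 (61.8%): Mycn, Mycl, Nhlh1, Meis1 and Etv1. Over the long intervals the counts are thus near those of the whole table, in which most probes fell. The median over the members was -1.48 (log2) at P56 against E18 and -1.07 over all probes.

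**Figure D4:**
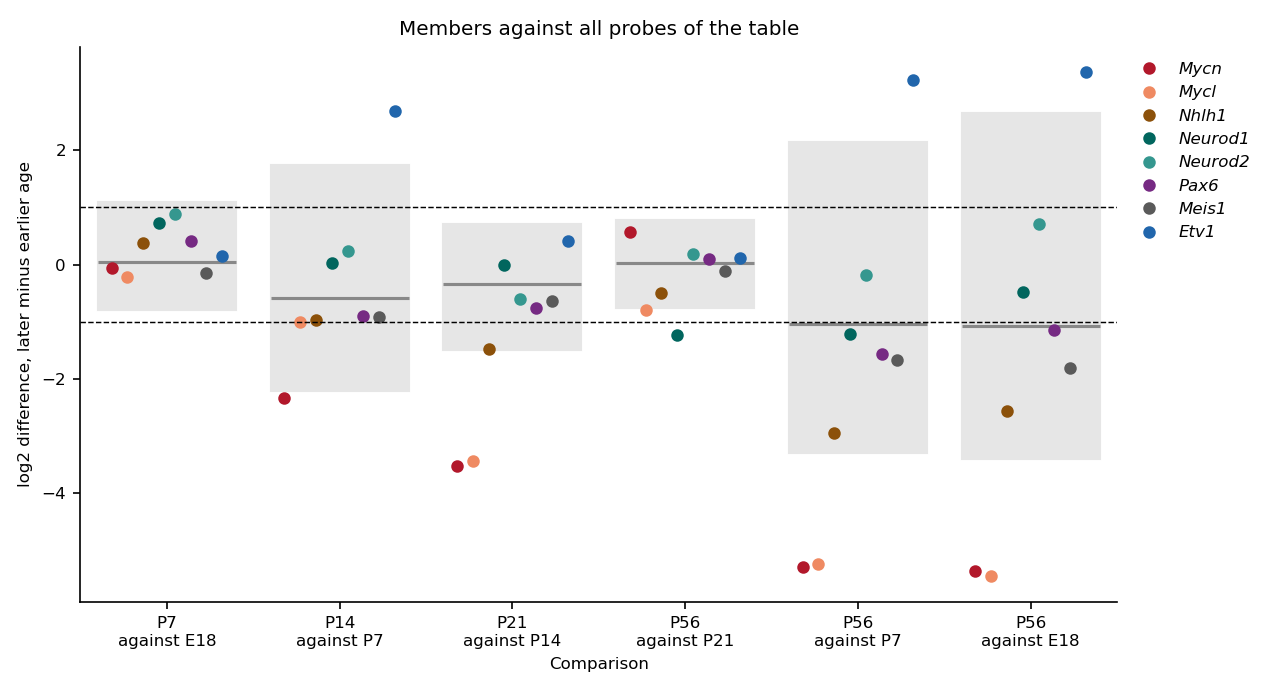
log2 difference of the later minus the earlier age (y axis) in 6 comparisons of ages (x axis). Grey boxes span the 5th to 95th percentile of all 897 probes with their median as a line, dashed lines mark 2-fold, and points are the 8 members. Mycn and Mycl both lie below the box at P21 against P14, P56 against P7 and P56 against E18. Mycn also lies below it at P14 against P7, and Mycl and Neurod1 lie below it at P56 against P21. Etv1 lies above it in 3 comparisons.

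Profiles were also compared as the root mean square difference between mean-centred log2 values over the 5 ages, which measures likeness of shape only. The nearest genes depend on the log2 scale: with values as deposited, 0 of the 3 were shared for Mycl, Nhlh1 and Etv1, 1 for Mycn and 2 for each of the other 4. Among the 28 pairs of members, Pax6 and Meis1 were most alike (0.24), followed by Neurod1 and Neurod2 (0.49), while Mycn and Etv1 were least alike (3.96). Over all named genes, the 3 nearest to Mycn were D430019H16Rik (0.30), Sox11, a transcription factor gene of immature neurons (0.33), and Ncaph, a condensin subunit gene (0.43). Ncaph had 0.07% at P21 and at P56, both set to the floor of 1%. It was not among the 3 with quantile normalization or with values as deposited. The genes nearest to Mycl were Nt5dc2 (0.33), the zinc finger gene Zfp57 (0.42) and Cks1b, which encodes a subunit of cyclin-dependent kinases (0.53). Nearest to Etv1 were Gpd1, a glycerol phosphate dehydrogenase gene (0.15), Grin2c, an NMDA receptor subunit gene (0.27), and St8sia5 (0.27). Nearest to Neurod1 were Fxyd7 (0.25), the nuclear export gene Xpo1 (0.36) and Arhgef7 (0.39). Nearest to Neurod2 were 2610005L07Rik (0.16), Nfix, a nuclear factor I gene (0.17), and Slc30a4, a zinc transporter gene (0.17). Those nearest to Nhlh1 were Slc1a4 (0.22), H1f10 (0.22) and Col4a1 (0.23), a basement membrane collagen gene. Pax6 lay nearest to Srsf10 (0.02), Nop56 (0.06) and Set (0.07), and Meis1 to Nsa2 (0.05), Erh (0.07) and Mapre1 (0.08). The shapes of Pax6 and Meis1 were common, with 224 and 193 of the named probes within 0.3, whereas 0 lay that close to Mycl, 1 to Mycn, 1 to Neurod1, 4 to Etv1, 13 to Nhlh1 and 15 to Neurod2.

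Other transcription factor genes of the same families were few in the table. At P56 against E18, 52.5% of all probes were lower and the median probe differed by -1.07 (log2). The counts for these 2 ages that follow are to be read against that. Of 20 listed bHLH and Id genes 4 were measured, and all 4 were lower at P56 than at E18, with a median of -2.25 (log2): Hes6 and Tcf12, and Id1 and Id3, whose proteins bind bHLH factors and keep them from DNA. Id3 had 16.6% at P56 and 94.8% at E18, and Tcf12, a partner gene of tissue-specific bHLH factors, had 36.2% and 91.6%. Of 21 listed homeodomain, paired and TALE genes 3 were measured and all 3 were lower, with a median of -1.69: Pax3 had 29.0% at P56 and 93.9% at E18, Pbx3, of the TALE class like Meis1, had 32.4% and 100%, and En1 had 22.4% and 100%. None of the 11 other ETS genes listed was measured, so Etv1 has no family member beside it. Of 24 listed genes for Hedgehog signalling and the progenitors of granule cells, 4 were measured. All 4 fell by 2-fold or more at P14 against P7: the cyclin genes Ccnd1 and Ccnd2, the chemokine receptor gene Cxcr4 and Id1. In that step 24.7% of all probes were lower and the median probe differed by -0.58. Ccnd2 had 10.1% at P14 and 100% at P7, and Cxcr4 had 16.0% and 79.1%.

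Of 16 listed genes of immature and migrating granule neurons 7 were measured, 5 of them lower at P56 than at E18 (52.5% of all probes were) with a median of -2.07. The other 2, the nuclear factor I genes Nfix and Nfia, differed by 0.68 and -0.41 (log2). At P21 against P14, the step in which Mycn, Mycl and Nhlh1 fell, 4 of the 7 fell (13.2% of all probes did) with a median of -1.07, against -0.35 over all probes. Sox11 had 1.32% at P21 and 26.8% at P14, Sox4 3.71% and 20.2%, the netrin receptor gene Unc5c 35.5% and 85.2%, and Dpysl3, a gene of growing axons, 5.05% and 10.6%. Nfix, Nfia and Nrp1, a semaphorin receptor gene, stayed within 2-fold in that step, Nrp1 at 0.26 (log2).

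Markers of other cells in the tissue moved over the same ages. At P56 against E18, 22.6% of all probes were higher and 52.5% were lower by 2-fold or more. All 4 measured Purkinje cell genes, all 3 astrocyte genes and all 3 oligodendrocyte genes were higher. Summed over their probes, of which the 4 Purkinje cell genes have 5, the values were 419 points at P56 and 66.0 at E18 for Purkinje cells. The sums were 222 and 25.7 points for astrocytes and 162 and 1.93 for oligodendrocytes. Of 5 meningeal genes 4 and of 3 vessel genes all 3 were lower, with sums of 205 points at P56 and 459 at E18 for meninges and 62.7 and 282 for vessels. Of 3 genes of GABAergic interneurons 2 were higher and 1, Sst, was lower, with sums of 206 and 138 points. The 1 measured gene of unipolar brush cells and cerebellar nuclei, Calb2, was higher, at 80.7% and 23.5%. Calb2 is also counted above among the genes of mature granule cells, and Pvalb is counted for both Purkinje cells and GABAergic interneurons. Of 2 microglial genes 1 was higher, with sums of 149 and 110 points. Of 2 choroid plexus genes 1 was lower: Igfbp2 had 27.7% at P56 and 100% at E18, and Ttr had 62.9% and 100%. None of these markers was at 0 at any age, and since each value is a share of the gene's own highest signal, the table does not show how much of any cell type a sample held. Their part in the changes of the 8 genes was not tested.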

How the data were processed

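The table was used as the authors deposited it, with its values read as percent. Per the labels each value is a mean of 2 array experiments, and no source used here gives the array make, background correction or normalization. Member symbols matched RefSeq by gene identifier in 8 of 8 cases. Values under 1% were set to 1% (0 member values), and log2 differences of 2-fold or more were called. Limits on the experiments follow by arithmetic from the scale, and their computation was tested on simulated data made on that scale. This does not test whether the deposited values have that scale. The values of single experiments and the opposed directions were added after the values were seen. Promoter windows are the 250 bases before RefSeq starts. Members, lists and rules were chosen with earlier results of these data known. Named were all members, list genes as examples and the 3 nearest profiles of each member. Several examples, among them Id3, Tcf12, Cxcr4, Gabra6, Kcnj9 and Calm3, were picked after their values were seen. Counts and medians of lists average the probes of a gene, while summed values add all probes. Alternatives were 2 other floors, a pseudocount, 2 scalings between columns, 2 thresholds, a filter on low values and other shares for loss and gain. Python 3.11.15, numpy 2.4.6, pandas 2.3.3 and matplotlib 3.10.9 were used.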

Additional observations from a re-analysis of the deposited data

How the results depend on the processing

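Of 288 recomputed log2 differences of single members, 265 kept their side of 2-fold without changing sign. A further 14 fell short of it, 2 newly passed it and 7 that were not past 2-fold changed sign. The 265 include 48 with the smallest value as floor and 48 with probes under 1% removed, none of which could change. They also include differences that became 0 with the floor at the 10th percentile, among them those of Mycn, Mycl and Nhlh1 at P56 against P21. Dividing columns by their medians moved the median of all probes at P56 against E18 to -0.06, in place of -1.07 (log2). Members counted as higher and lower at P56 against E18 were then 2 and 3 in place of 1 and 5, with 1 lower at P14 against P7 in place of 2 and 3 lower at P56 against P7 in place of 6. Over all probes 272 were then higher and 147 lower at P56 against E18, in place of 203 and 471. Quantile normalization gave 2 members higher at P56 against E18, 1 lower at P14 against P7 and 0 lower at P56 against P21. It also left 4 lower at P56 against E18 and 4 at P56 against P7. A pseudocount of 1% left 1 lower at P14 against P7, and a floor at the 10th percentile left 1 lower at P21 against P14. With a threshold of 1.5-fold, 2 members were higher at P56 against E18 and 2 at P7 against E18, and 5, 6 and 2 were lower at P14 against P7, P21 against P14 and P56 against P21. With 3-fold, 1 was lower at P14 against P7, 2 at P21 against P14 and 0 at P56 against P21. That threshold left 4 lower at P56 against E18 and 4 at P56 against P7. The smallest value as floor and the removal of probes under 1% could change no count of members, because 0 member values are under 1%. Mycn kept its loss at P14 and Nhlh1 its loss at P21 under all 4 alternatives for the order, as did Etv1 its gain at P14. Mycl moved to P21 under all 4, and Meis1 moved to P21 with a share of 33.3% or quantile normalization and was not lost with 25% or with median scaling. Pax6 and Neurod1 were not lost with 33.3% or 25% of their highest value, nor Pax6 with median scaling or Neurod1 with quantile normalization. The gain of Neurod1 moved to P7 with both scalings, and that of Neurod2 to E18 with 33.3% and 25%. With quantile normalization the 3 nearest genes were the same for Pax6 alone. With values as deposited in place of log2 values the 3 changed for all 8 members, and 0 of 3 were shared for Mycl, Nhlh1 and Etv1. No paired analysis was possible because each age is 1 column. Signal over background is unknown, which limits the lowest values most.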

Other observations

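At P7 against E18, 128 of the 897 probes (14.3%) must have moved in opposite directions in the 2 experiments, if the values are scaled as read here. The same count was 1 at P14 against P7, 2 at P21 against P14, 5 at P56 against P21, and 0 at P56 against P7 and at P56 against E18. These counts are lower bounds, since opposite directions can be seen only where both highest ages are fixed by the values. That is so for the 136 probes that never reach 100 and have exactly 2 ages at 50 or more. The counts therefore follow which 2 ages these are. They do not show at which step the experiments differed more.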
